A study of Mus musculus with 19 samples.

Results

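The ventral lobe (VP) of the mouse prostate was compared between 5 arrays of mice on a high fat diet (HFD) and 5 arrays of mice on a control diet. The features described are the probe sets of a 3′ expression array, other than its spiked controls, that lay above the median of their own array on at least 4 of these 10 arrays. There were 23187 such probe sets of 45037 on the array, and 19784 of them carried 1 gene symbol, which gave 11008 genes. The filter used signal alone and not the diet, so a gene high on either diet could enter.

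All mice were of the strain C57BL/6J, and the labels name no allele or transgene. Each diet group held 5 mice that were 8 weeks old at the start and fed freely for 12 weeks, either on control diet or on high fat diet. The labels give no composition for either diet. The series also holds 5 control and 4 HFD arrays of the dorsolateral lobe (DLP), which entered the fit as separate groups, and the labels mention an anterior lobe that was not analysed here. No label ties an array to a mouse. The p-values below therefore describe how much these samples scatter, which may in part be technical. The series title names Gpx3, a secreted glutathione peroxidase, and its values are given with its family.

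The ventral lobe of rodents is an androgen-dependent gland whose luminal epithelium secretes a protein-rich fluid. Its epithelial cells make fatty acids and sterols, and this synthesis is governed by the SREBP transcription factors, which are encoded by Srebf1 and Srebf2. The liver X receptors, which sense oxidised sterols, act beside them. They raise transcription of Srebf1, of the sterol exporters Abca1 and Abcg1 and of Mylip, whose product marks the low density lipoprotein receptor for degradation. Feeding and body fat are also known to act on insulin signalling, clock genes and inflammatory genes in many tissues.

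The tissue label was checked against marker genes. All 11 measured luminal markers (such as Epcam and Krt8) and all 12 smooth muscle markers lay above the array median on average, and of 8 basal markers 5 did. Of 8 genes listed for the dorsolateral lobe, 5 lay below the median (Tgm4, Pate14, Glb1l3, Fgl1 and Gsdma) and 3 above it, namely Msmb at 11.76 on control and 11.69 on HFD, Mmp7 at 3.79 and 4.79, and Fcgbp at 1.93 and 2.64. The summed level of the 8 genes was 798 to 6824 array units on control and 1389 to 7841 on HFD. No seminal vesicle gene passed the filter, although their summed level, on a linear scale in array units, was 125 on HFD VP 2 and 12.4 on HFD VP 1 against 2.5 to 5.43 on the other 8 arrays. Of 7 adipocyte genes, 4 lay below the median (Adipoq, Lep, Cidec and Retn) and 3 above it, Fabp4 (5.04 on control and 4.81 on HFD), Lipe (2.59 and 2.47) and Car3 (2.79 and 1.60). Array pairs correlated between 0.959 and 0.990 across genes, which are not independent replicates, and 2 arrays stood apart. HFD VP 3 had 272 genes more than 1 log2 unit from the mean of the other arrays of its group, control VP 4 had 151, and the other arrays had 40 to 107. On HFD VP 3 the genes far above the group included Saa3, Lcn2, Lyz2 and Gbp2, which are acute-phase, macrophage and interferon-induced genes. On control VP 4 they included the immediate early genes Atf3, Nr4a1, Jun and Fos. Other genes lay far below the group. On control VP 4 these included Rpl41 (8.80 against 11.74 to 11.84), Tmed9 and Gsn, and Rpl41 was also low on HFD VP 3 (9.62 against 11.66 to 11.81). The log2 signal of the 3′ minus the 5′ control probe sets of Gapdh, a measure of RNA integrity, was -0.26 to -0.03 on control arrays and -0.41 to -0.19 on HFD arrays. For Actb it was 1.28 to 1.51 on control and 1.17 to 1.64 on HFD.

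At a Benjamini-Hochberg adjusted p under 0.05 by limma, 18 genes differed by diet in the ventral lobe, which is 0.164% of the genes tested. Of these, 12 rose on the high fat diet (0.109%) and 6 fell (0.0545%). The 12 that rose were Ces1d, Mylip, Akr7a5, Hmgn3, Srebf1, Xpa, Tigd5, Snx17, Ptgr2, Blnk, Pisd and Phb2. The 6 that fell were Serpinh1, Tor2a, Carnmt1, Chmp3, Tnpo1 and Dynll1. All of these changes were small, from 1.27-fold to 1.72-fold with a median of 1.41-fold, and limma's adjusted p ran from 0.0113 to 0.0403. The diet groups did not overlap for 16 of the 18 genes, the exceptions being Xpa and Serpinh1, against 2.66% of all genes (1.44% higher and 1.22% lower on HFD). Across all genes the median log2 difference was 0.009, the central 95% lay between -0.34 and 0.37, and 52.4% of differences were positive.

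**Figure D1:**
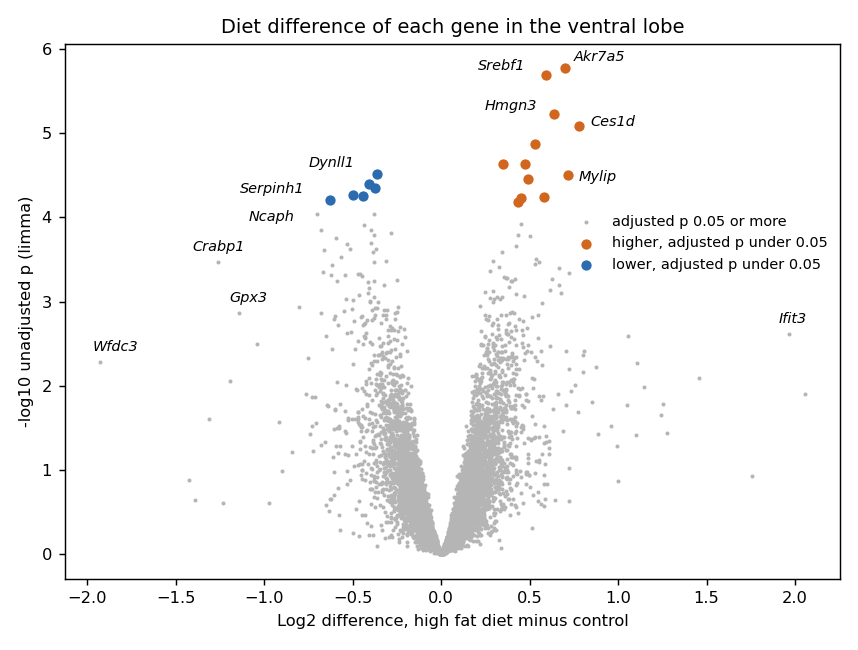
Each point is 1 of the 11008 genes, with the log2 difference between diets in the ventral lobe on the x axis and -log10 of limma's unadjusted p on the y axis. The 12 orange genes rose and the 6 blue genes fell, whereas genes with the widest differences, such as Ifit3 and Wfdc3, lie lower because their arrays varied more.

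The set of 18 depended on how the spread was estimated. The fit used all 19 arrays with 1 precision weight per lobe, since DLP arrays varied less (weight ratio 1.93), and thereby took part of its error estimate from DLP. On simulated arrays this fit made false calls more often than its threshold allows, and more often than a fit of the VP arrays alone. With the VP arrays alone no gene passed limma's threshold (0 genes, with 1175 at an unadjusted p under 0.05 and a smallest adjusted p of 0.0951, for Akr7a5), and the 18 genes had adjusted p from 0.0951 to 0.188. With equal spread assumed in both lobes 124 genes passed (1.13%), the 18 among them. With 1 VP array left out, 0 genes passed without control VP 2 and 1 without HFD VP 5. The count was 3 without control VP 3, 4 without control VP 5 and 5 without HFD VP 2. The genes that passed in these fits were all among the 18. Other fits also passed genes outside the 18. Without HFD VP 1, 5 passed (4 of the 18), and without control VP 1, 8 passed (7 of the 18). Without HFD VP 4, 9 passed (5 of the 18), and without control VP 4, 15 passed (12 of the 18). Without HFD VP 3, 24 passed (14 of the 18). With 1 DLP array left out, the lowest counts were 5 genes without control DLP 3 and 9 without control DLP 4. None of the 18 passed in all 19 of these fits. Akr7a5 passed in 18, Srebf1 in 17, and Ces1d and Hmgn3 in 15, while Tor2a passed in 5 and Serpinh1 in 4. Without HFD VP 3 and control VP 4 together 25 genes passed, 14 of the 18 among them.

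**Figure D2:**
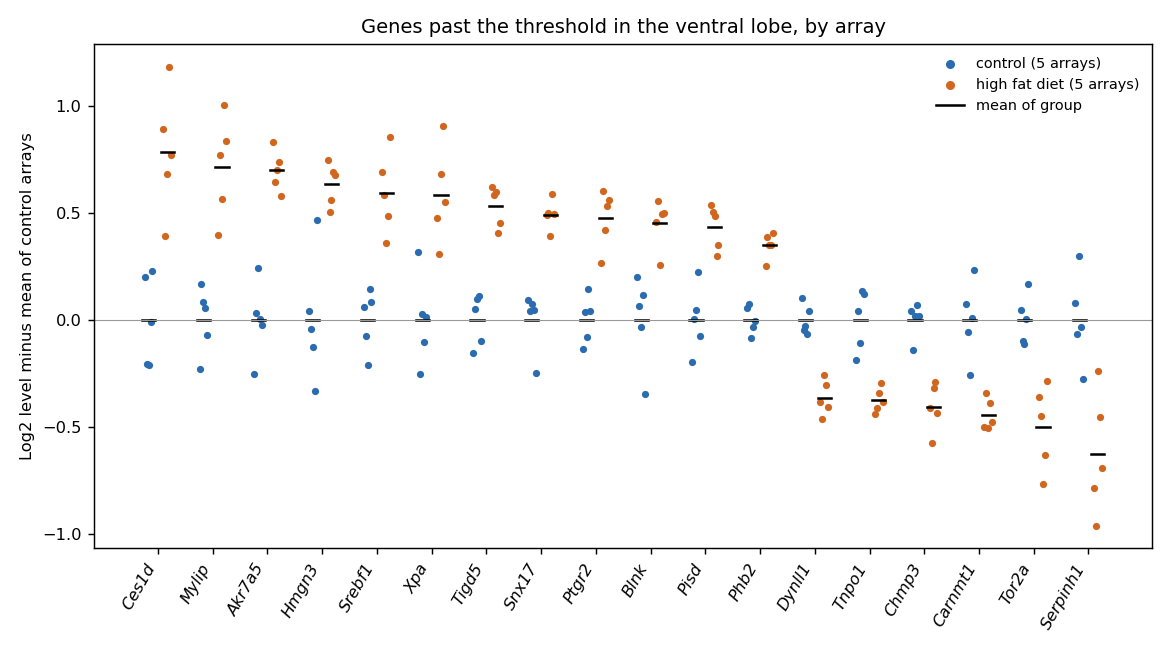
The log2 level on each array minus the mean of the control arrays is shown for the 18 genes past the threshold (blue, control; orange, high fat diet; black bars, group means; 5 arrays per group). For Xpa and Serpinh1 the groups overlap, and for the other 16 genes they do not.

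Of the 18 genes 3 are members of the gene lists used here, Srebf1 of lipogenesis, Mylip of lipoprotein uptake and sterol efflux, and Ces1d of neutral lipid hydrolysis and droplets. Srebf1, which encodes the transcription factor SREBP1 that drives fatty acid synthesis, had log2 levels of 5.16, 5.03, 4.89, 5.25 and 5.19 on control arrays 1 to 5. On the HFD arrays its levels were 5.79, 5.68, 5.46, 5.58 and 5.95. Every HFD array lay above every control array, with the lowest HFD value on HFD VP 3. The log2 difference was 0.59 ± 0.09 (SE), or 1.51-fold, with a 95% interval from 0.41 to 0.78 and limma's adjusted p of 0.0113. Without the 2 arrays that stood apart the difference was 0.69.

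Mylip, the ubiquitin ligase that directs the low density lipoprotein receptor to degradation, rose 1.64-fold. Its control levels on the log2 scale were 7.63, 8.03, 7.94, 7.91 and 7.79, and its HFD levels were 8.26, 8.63, 8.43, 8.86 and 8.69. The groups did not overlap, and limma's adjusted p was 0.038. Ces1d, a carboxylesterase that hydrolyses triglycerides, showed the widest of the 18 changes. Levels were 2.91, 2.51, 2.51, 2.70 and 2.94 on control and 3.61, 3.10, 3.39, 3.90 and 3.48 on HFD, a log2 difference of 0.78 ± 0.13 (SE) with limma's adjusted p of 0.0228. Its near-identical neighbours in the carboxylesterase family could share signal with this probe set. Pisd and Snx17 are in none of the lists. Pisd, the mitochondrial enzyme that makes phosphatidylethanolamine from phosphatidylserine, rose 1.35-fold (log2 difference 0.43, limma's adjusted p 0.0403), from 5.33 to 5.75 on control and from 5.82 to 6.06 on HFD. Snx17, a sorting nexin that returns receptors of the lipoprotein receptor family from endosomes to the cell surface, rose 1.41-fold (log2 difference 0.49, limma's adjusted p 0.038).

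Srebf1, Mylip and Ces1d were the list members that passed, 1 in each of 3 lists. In the lipogenesis list 18 genes were tested, 1 rose (Srebf1) and 0 fell, and 14 of 18 differences were positive with a median of 0.12 against 0.009 for all genes. Scd2, a desaturase that makes monounsaturated fatty acids, was 9.57 ± 0.36 (SD, n = 5) on control and 10.13 ± 0.42 (SD, n = 5) on HFD, with overlapping groups and limma's adjusted p of 0.183. Gpam, which starts glycerolipid synthesis, had a difference of 0.22 and the fatty acid synthase Fasn, named after its values were seen, one of 0.12. In the list of lipoprotein uptake and sterol efflux 1 of 15 genes rose (Mylip) and 0 fell, with 8 positive and 7 negative differences and a median of 0.08, which was -0.06 without the 2 arrays that stood apart. Abca1, which exports cholesterol from cells, came near the threshold. It measured 6.21, 5.78, 6.05, 6.55 and 6.20 on control and 6.50, 6.59, 7.39, 6.96 and 6.69 on HFD, so that 1 HFD array lay below the highest control array, and limma's adjusted p was 0.0907. Lpcat3, a phospholipid-remodelling enzyme, differed by 0.42 (limma's adjusted p 0.174).

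Of 22 cholesterol synthesis genes none passed (0 at limma's adjusted p under 0.05, 1 at an unadjusted p under 0.05, against 11.3% of all genes), 17 had a negative difference and the median was -0.08. The lowest of them was Fdps, farnesyl diphosphate synthase, at -0.42 with limma's adjusted p of 0.381. In the list of neutral lipid hydrolysis and droplets 1 of 11 genes rose (Ces1d), and the droplet coat gene Plin4 had a difference of 0.38 with limma's adjusted p of 0.161. Of 26 fatty acid oxidation genes none passed (3 higher and 1 lower at an unadjusted p under 0.05), 19 differences were positive and the median was 0.05. Acadm, the medium-chain acyl-CoA dehydrogenase, had the smallest p of that list, at a difference of 0.41 that was 0.28 without the 2 arrays that stood apart.

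Akr7a5 and Ptgr2, which are in none of the lists, rose. Akr7a5, an aldo-keto reductase of aldehydes, had the smallest p in the lobe. Its log2 levels were 3.83, 4.11, 4.32, 4.09 and 4.06 on control and 4.91, 4.72, 4.78, 4.82 and 4.66 on HFD. No arrays overlapped, and the difference was 0.70 ± 0.10 (SE), or 1.62-fold, with a 95% interval from 0.48 to 0.91 and limma's adjusted p of 0.0113. Its other probe set past the filter gave a difference of -0.04, so this rise rests on 1 probe set. That other probe set was the brighter one on control, at a mean of 4.44 against 4.08, and the dimmer one on HFD, at 4.40 against 4.78. The probe set standing for Akr7a5 was chosen by its mean over both diets, so this choice was not independent of its HFD values. Ptgr2, a reductase of keto-prostaglandins, measured 4.15, 4.33, 4.21, 4.43 and 4.33 on control and 4.56, 4.89, 4.71, 4.82 and 4.85 on HFD, a 1.39-fold rise with limma's adjusted p of 0.0368. Its 4 other probe sets past the filter gave -0.0060, -0.0079, -0.08 and 0.19, so this rise too rests on 1 probe set.

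Gpx3 did not pass limma's test, although all HFD arrays measured less of it than all control arrays. It measured 6.74, 6.61, 6.97, 7.53 and 6.90 on control and 5.41, 6.15, 6.34, 5.18 and 5.96 on HFD. The highest HFD array lay below the lowest control array, and the log2 difference was -1.14 ± 0.31 (SE), with a 95% interval from -1.79 to -0.50. A two-sided exact permutation test gave p = 0.0079, its lowest possible value for groups of 5 and 5, while limma's adjusted p was 0.138. Any gene whose groups do not overlap reaches this permutation p, so it does not single out Gpx3. Groups did not overlap for 2.66% of all genes (1.22% lower on HFD). If the title rests on these arrays, the choice of Gpx3 is not independent of these values. The same difference in DLP was -1.58.

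Of the 6 glutathione peroxidases tested none passed (2 higher and 2 lower at an unadjusted p under 0.05). At that p 6.19% of all genes were higher and 5.08% lower, which also applies to the lists below. Gpx1, the cytosolic enzyme, differed by 0.19, Gpx4, which reduces lipid peroxides in membranes, by 0.20, and Gpx2 by 0.25. Gpx7 differed by 0.12, and Gpx8, an enzyme of the endoplasmic reticulum, by -0.24. Limma's adjusted p of these genes ran from 0.324 for Gpx1 to 0.83 for Gpx2. Among 19 glutathione transferases none passed (3 higher and 0 lower at an unadjusted p under 0.05), 13 differences were positive and the median was 0.03. Gsta4, which conjugates lipid-derived aldehydes, had a difference of 0.66, Gstt2 one of 0.47 and Gstt1 one of 0.34, with limma's adjusted p of 0.279, 0.187 and 0.233. Among 16 NRF2 targets none passed (2 higher and 0 lower at an unadjusted p under 0.05), and the median was 0.05. Of 18 other antioxidant enzymes none passed (0 higher and 3 lower at an unadjusted p under 0.05) and the median was -0.10. Prdx4, a peroxiredoxin of the secretory pathway, and Glrx2, a mitochondrial glutaredoxin, had differences of -0.37 and -0.38 with groups that did not overlap, and limma's adjusted p of 0.371 and 0.136. Groups did not overlap for 2.66% of all genes (1.22% lower on HFD).

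Hmgn3, Tigd5, Blnk, Phb2 and Xpa also rose. Hmgn3, a nucleosome-binding protein, measured 6.24, 6.15, 6.06, 5.86 and 6.66 on control and 6.94, 6.70, 6.75, 6.89 and 6.87 on HFD, so that control VP 5 lay just below the lowest HFD array. It rose 1.55-fold (limma's adjusted p 0.0217), and a second probe set gave 0.36. Tigd5, a gene derived from a transposable element, rose 1.44-fold from levels of 2.37 to 2.63 on control to 2.93 to 3.14 on HFD. Blnk, an adaptor best known from B cell receptor signalling, rose 1.37-fold from 6.12 to 6.66 on control to 6.71 to 7.01 on HFD. Phb2, a prohibitin of the inner mitochondrial membrane, had the narrowest spread, 6.14 ± 0.06 (SD, n = 5) against 6.49 ± 0.06 (SD, n = 5), and rose 1.27-fold. Its 3 other probe sets gave -0.19, 0.14 and -0.04. Xpa, a nucleotide excision repair protein, rose 1.5-fold, but its highest control array, at 3.68, lay above the lowest HFD array, at 3.67. Its other probe set gave -0.10. Limma's adjusted p of Tigd5, Blnk, Phb2 and Xpa was 0.030, 0.0402, 0.0368 and 0.0402.

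Dynll1, a light chain of the dynein motor, measured 9.10, 8.96, 8.97, 8.94 and 9.04 on control and 8.62, 8.54, 8.74, 8.69 and 8.59 on HFD. The groups were apart and tight, and the fall was 0.36 on the log2 scale with limma's adjusted p of 0.038; of the 19 other probe sets of the called genes, only one of Dynll1 also had groups apart. Chmp3, a subunit of the ESCRT-III membrane-remodelling complex, fell 1.33-fold from a mean of 5.07 to 4.66, and Tnpo1, a nuclear import receptor, fell 1.30-fold from 6.08 to 5.71. Tor2a, a torsin ATPase of the endoplasmic reticulum, fell 1.41-fold from 5.94 to 5.44. Carnmt1, the carnosine methyltransferase, fell 1.36-fold from 6.67 to 6.23. Limma's adjusted p was 0.0401 for Chmp3 and 0.0402 for Tnpo1, Tor2a and Carnmt1. The other probe set past the filter gave -0.04 for Chmp3, -0.05 for Tnpo1, -0.08 for Tor2a and -0.09 for Carnmt1. Each of these falls thus rests on 1 probe set.

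Serpinh1, the collagen chaperone known as HSP47, had the widest fall among the 6 genes that fell and passed. The fall was 0.63 ± 0.12 (SE) on the log2 scale with limma's adjusted p of 0.0403. Serpinh1 measured 5.37, 5.22, 5.59, 5.26 and 5.01 on control and 4.50, 4.33, 5.05, 4.83 and 4.60 on HFD. HFD VP 3, at 5.05, overlapped with control VP 5, at 5.01, and the second probe set of the gene gave -0.47. The next genes in order of p did not pass. Ncaph, a condensin subunit that compacts mitotic chromosomes, differed by -0.70 with groups apart, and Fuca2, a secreted fucosidase, differed by -0.38, both with limma's adjusted p of 0.0505. Pdha1, a subunit of pyruvate dehydrogenase that was named after its values were seen, differed by 0.45 and Ola1, an Obg-like ATPase, by -0.44, both with limma's adjusted p of 0.0608. Rad21, a cohesin subunit, differed by -0.68 with limma's adjusted p of 0.0646.

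Agreement between probe sets was partial. Of the 18 genes, 12 had other probe sets past the filter, 19 in all, and 12 of these 19 had the same sign while 0 passed limma's adjusted threshold on their own. Several with the same sign lay near 0, at -0.00053 for 1 of Dynll1, -0.04 for Chmp3, -0.05 for Tnpo1, -0.08 for Tor2a and -0.09 for Carnmt1. Others were wider, such as 0.55 for Ces1d and -0.47 for Serpinh1. The probe sets of Akr7a5, Phb2, Pisd and Tor2a are of the class that the array maker marks as able to bind unrelated transcripts (4 of 18, against 4.21% of all genes tested), and those of Tigd5 and Snx17 of the class shared between related transcripts. When every probe set past the filter was tested on its own, 62 of 23187 passed (0.267%), 20 of them higher and 42 lower.

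Wider differences lay in genes whose arrays varied more. Of all genes 21 differed more than 2-fold (0.191%) and none of the 18 was among them. Wfdc3, a WAP-domain protein, measured 9.05, 9.07, 9.24, 9.16 and 10.10 on control and 8.65, 7.77, 8.02, 4.47 and 8.05 on HFD. Groups did not overlap, with HFD VP 4 far below the rest, and limma's adjusted p was 0.202 for this difference of -1.93. Crabp1, which binds retinoic acid in the cytosol, measured 6.84, 6.70, 6.35, 6.32 and 6.23 on control and 5.45, 5.85, 4.30, 4.78 and 5.75 on HFD. Every HFD array was lower, the difference was -1.26 ± 0.29 (SE), and limma's adjusted p was 0.0851. Of the 13 retinoid handling genes none passed (0 higher and 2 lower at an unadjusted p under 0.05), and the median was 0.01. At that p 6.19% of all genes were higher and 5.08% lower. The widest rise was that of Ifit1bl1, by 2.06 from a mean of 2.83 to 4.88, with overlapping groups, and it did not pass. Igha, the constant region of immunoglobulin A, differed by 1.76, Lcn2 by -1.39 and Lrg1 by -1.42, each with overlapping groups and limma's adjusted p above 0.56.

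Interferon-induced genes had the highest median of the lists with 4 or more genes, but none passed and the arrays within each diet spread widely. Of 35 genes tested, 32 had a positive difference with a median of 0.48, against 52.4% positive and 0.009 for all genes. None was past limma's adjusted threshold (0 genes), and 8 were higher at an unadjusted p under 0.05, against 6.19% of all genes. Ifit3, an antiviral protein with tetratricopeptide repeats, measured 5.85, 2.76, 4.48, 2.83 and 2.47 on control and 4.84, 6.19, 6.74, 3.75 and 6.70 on HFD. Control VP 1 and 3 lay among the HFD arrays, and HFD VP 1 and 4 lay within the control range. The difference was 1.97 ± 0.57 (SE) with limma's adjusted p of 0.16. Ifit2 and Oasl1, a 2′-5′ oligoadenylate synthetase-like protein, differed by 0.81 and 0.71, both with limma's adjusted p of 0.183. Averaged over the list, the centred log2 score was highest on HFD VP 3 at 1.14, and it was 0.42 on control VP 1 and -0.48 on HFD VP 4. The summed level of macrophage markers was also highest on HFD VP 3, at 375 array units against 61.0 to 196 on the other 9 arrays. Without HFD VP 3 and control VP 4 the list's median was 0.11 and 25 of 35 differences were positive. In whole tissue, fewer cells of a type and less RNA per cell cannot be told apart.

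Promoters of 3 interferon-induced genes are shown because this list had the highest median of those with 4 or more genes and widely spread arrays on both diets. The interferon-stimulated response element was searched on both strands as 2 copies of GAAA with any 2 bases between them, from 250 bases before to 50 after each gene's start, in RefSeq promoters of build GRCm38.p6. Of the list's genes 27 had a promoter in that table, and 14 of them (51.9%) held the motif, against 3.62% of the 8921 tested genes with a promoter and 3.44% of all 32851 promoters. Capitals mark the motif, read here on the strand of the gene. Ifit3 and Ifit1 hold 2 matches each, and Rsad2, which encodes viperin, holds 1. Ifit1 and Rsad2 were chosen after their values were seen and differed by 1.46 and 1.24, with limma's adjusted p of 0.246 and 0.342.
Ifit3, chr19:34583348-34583441, plus strand: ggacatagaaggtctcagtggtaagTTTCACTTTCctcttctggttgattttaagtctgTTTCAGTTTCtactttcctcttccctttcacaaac
Ifit1, chr19:34640760-34640838, plus strand: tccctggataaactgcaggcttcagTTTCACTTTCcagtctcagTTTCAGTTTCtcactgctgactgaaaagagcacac
Rsad2, chr12:26456538-26456597, minus strand: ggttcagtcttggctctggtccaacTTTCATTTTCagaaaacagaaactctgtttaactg

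**Figure D3:**
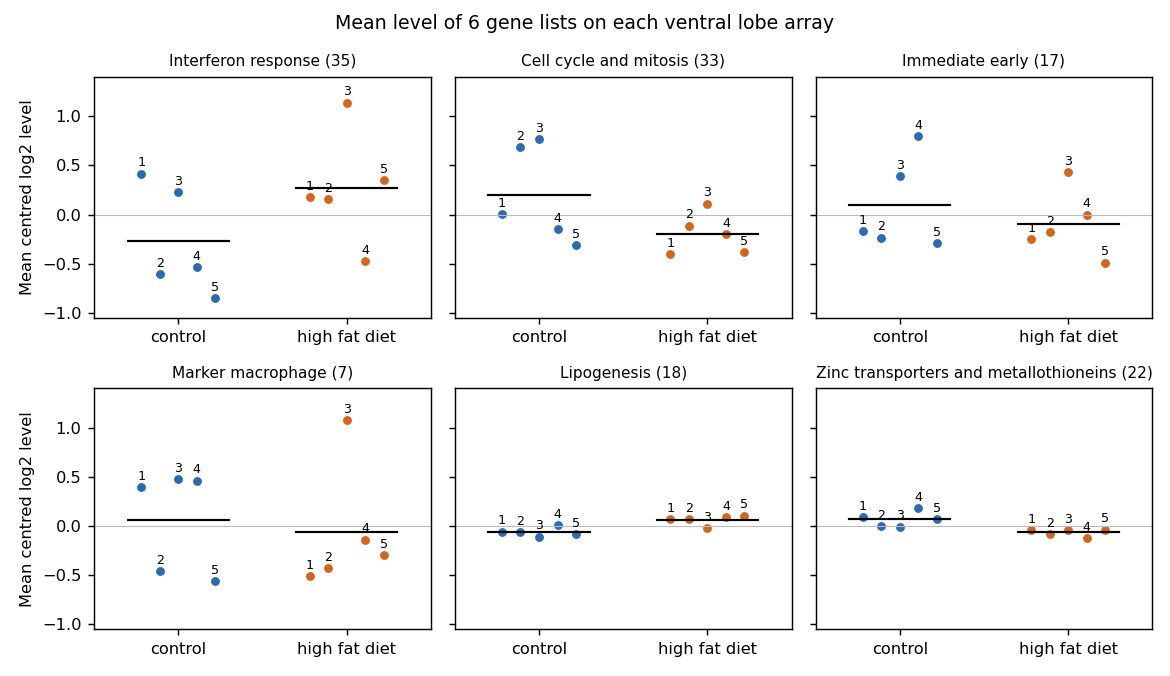
For 6 gene lists the mean over members of the centred log2 level (level minus the gene's mean over the 10 arrays) is plotted for each array, numbered by replicate, with black bars for group means (blue, control; orange, high fat diet). HFD VP 3 is highest for the interferon and macrophage lists, control VP 2 and 3 are highest for the cell cycle list, and only the zinc list among these 6 has groups that do not overlap.

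Cell cycle and mitosis genes had the lowest median. Of 33 tested, 31 had a negative difference with a median of -0.38, which was -0.62 without HFD VP 3 and control VP 4, when 32 were negative. None was past limma's adjusted threshold (0 genes), and 10 were lower at an unadjusted p under 0.05, against 5.08% of all genes. Top2a, the topoisomerase of dividing cells, measured 4.09, 4.88, 4.96, 3.75 and 3.47 on control and 3.11, 3.94, 3.64, 3.28 and 3.42 on HFD. Control VP 2 and 3 stood above all other arrays, while control VP 4 and 5 lay within the HFD range. Rrm2, a subunit of ribonucleotide reductase, had the same shape, at 5.30 and 5.00 on those 2 control arrays and 3.51 to 4.03 on the other 8. Limma's adjusted p was 0.194 for Top2a and 0.284 for Rrm2. The mean score of the list on control VP 2 and 3 was 0.69 and 0.77, against -0.40 to 0.11 on the other 8 arrays. Many genes of this list were dim, with a median level of 2.39 in the ventral lobe against the array median of 1.85. On average 31 of the 33 lay above the array median. Some had an HFD mean below it, such as Aurka (2.09 on control and 1.59 on HFD) and Prc1 (2.26 and 1.82). Signal thus limits the differences of the dimmer members.

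Clock genes differed in both directions. Of 17 tested none passed limma's adjusted threshold (0 genes), whereas 6 were higher and 2 lower at an unadjusted p under 0.05, and for 4 genes the groups did not overlap. Of all genes 6.19% were higher and 5.08% lower at that p, and 2.66% had groups that did not overlap. Npas2, a partner of the clock activator complex, measured 2.15, 2.33, 2.21, 2.45 and 2.07 on control and 1.11, 1.72, 1.93, 1.69 and 1.43 on HFD. Every HFD array was lower, and the difference was -0.66 (limma's adjusted p 0.0766), although 4 HFD arrays lay below the array median of 1.85. Per3, a period gene, differed by 0.55 and Hlf, a PAR-domain activator of output genes, by 0.51, with limma's adjusted p of 0.138 and 0.246. For Per2 and Nfil3, named after their values were seen, the groups did not overlap either. Per2 differed by 0.36, and Nfil3, a repressor at the same DNA element as Hlf, by -0.44. The labels used here do not state the time of day at which tissue was taken.

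PAR-domain factors and Nfil3 bind the D-box, which was searched as TTATGNAA on both strands. In the RefSeq promoters 2 of 15 clock genes held it, against 2.40% of the tested genes with a promoter. The promoter of Per3 held 2 matches, shown in capitals on the strand of the gene.
Per3, chr4:151044791-151044895, minus strand: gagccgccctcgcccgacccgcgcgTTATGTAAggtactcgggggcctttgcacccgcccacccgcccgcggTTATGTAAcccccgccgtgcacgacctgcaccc

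**Figure D4:**
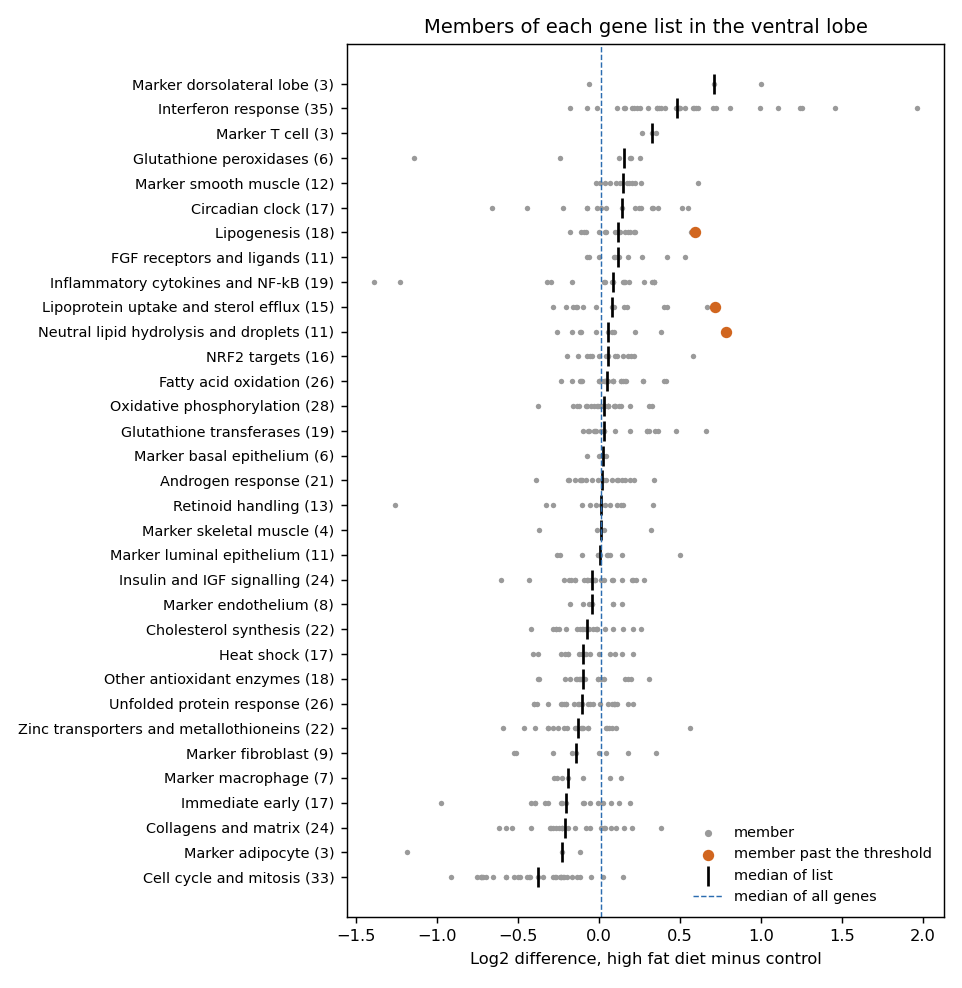
Log2 differences (high fat diet minus control) of the members of each gene list with at least 3 tested genes are shown as grey points, members past the threshold as orange points and list medians as black ticks, with the number of tested genes in brackets and the median of all genes as a dashed line. Only Srebf1, Mylip and Ces1d are past the threshold among list members, the interferon list has a median of 0.48 and the cell cycle list one of -0.38.

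Collagen and matrix genes lay mostly below 0, beside the fall of their chaperone Serpinh1. Of 24 tested none passed (0 at limma's adjusted p, 0 higher and 7 lower at an unadjusted p under 0.05, against 5.08% of all genes lower), 16 were negative and the median was -0.21. Col6a3, a chain of collagen VI, differed by -0.62 with limma's adjusted p of 0.0879, and the fibrillar collagens Col3a1 and Col5a1 differed by -0.57 and -0.42. Fibroblast markers had a median of -0.14 over 9 genes, and without HFD VP 3 and control VP 4 the medians were -0.23 for the matrix list and -0.23 for the fibroblast list. Mean scores of the matrix list overlapped between diets, at -0.23 to 0.32 on control and -0.31 to 0.35 on HFD. The highest score was that of HFD VP 3. The part of fibroblast content in the matrix values was not tested.

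Mean scores of the 22 genes of zinc handling, for which the prostate is known, did not overlap between diets, and among the lists with 3 or more tested genes those of the adipocyte markers did not either. Scores ran from -0.01 to 0.18 on control and from -0.12 to -0.04 on HFD. The highest score was that of control VP 4, an array that stood apart. None of the genes passed (0 at limma's adjusted p, 1 higher and 2 lower at an unadjusted p under 0.05), 16 were negative and the median was -0.13. Without HFD VP 3 and control VP 4 the median was -0.08. Among all genes 6.19% were higher and 5.08% lower at that unadjusted p, and 2.66% had groups that did not overlap. Slc39a6, a zinc importer of the plasma membrane, measured 6.62, 6.54, 6.59, 6.80 and 6.37 on control and 6.08, 6.19, 5.96, 5.55 and 6.16 on HFD, with groups apart and limma's adjusted p of 0.066. The zinc-binding metallothionein Mt1 differed by -0.40, also with groups apart, and the importer Slc39a4 by 0.56, with limma's adjusted p of 0.205 and 0.301.

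No gene of the remaining functional lists passed. Unfolded protein response genes had a median of -0.11 over 26 genes, with Edem1 and Dnajb11 at -0.40 and -0.38, and a median of 0.00 without the 2 arrays that stood apart. Insulin and IGF signalling had a median of -0.04 over 24 genes, with Irs1, a substrate of the insulin receptor, at -0.44 and limma's adjusted p of 0.275. FGF receptors and ligands had a median of 0.12 over 11 genes, with the decoy receptor Fgfrl1 at 0.53, groups apart and limma's adjusted p of 0.0879. Oxidative phosphorylation had a median of 0.03 over 28 genes, with Cyc1 and Uqcrc1, subunits of complex III, at 0.32 and 0.19 and the electron carrier Cycs at -0.38. Androgen response had a median of 0.02 over 21 genes. None of them reached an unadjusted p under 0.05 (0 genes), against 11.3% of all genes. Heat shock had a median of -0.10 over 17 genes, with Hspa8 at -0.41. Inflammatory cytokine and NF-kB genes had a median of 0.09 over 19 genes, and immediate early genes one of -0.20 over 17 genes, which was -0.06 without the 2 arrays that stood apart.

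Markers of cell types showed no member past the threshold. Luminal markers had a median of 0.00 over 11 genes, with Cldn4, a tight junction claudin, at 0.50, groups apart and limma's adjusted p of 0.0647. Basal markers had a median of 0.02 over 6 genes and endothelial markers one of -0.04 over 8. Smooth muscle markers had 11 of 12 positive differences with a median of 0.15, which was 0.03 without the 2 arrays that stood apart, and Des, the muscle filament desmin, differed by 0.61. Adipocyte markers were tested for 3 genes, all negative, and the summed level of the 7 measured was 40.4 to 64.9 array units on control and 31.4 to 41.5 on HFD. Car3, a carbonic anhydrase abundant in fat, measured 2.71, 2.75, 2.47, 3.79 and 2.21 on control and 1.46, 1.47, 1.55, 1.51 and 1.99 on HFD, with groups apart, limma's adjusted p of 0.256 and 4 HFD arrays below the array median. Macrophage markers had a median of -0.19 over 7 genes, and T cell markers one of 0.33 over 3 genes. Of the 7 T cell markers measured only 2 lay above the array median on average, and Thy1 is also in the fibroblast list. Dorsolateral lobe markers had the highest median of the lists with 3 or more tested genes, 0.71 over 3 genes, which was 0.53 without the 2 arrays that stood apart. Mmp7, a matrix metalloproteinase, differed by 1.00 and Fcgbp by 0.71, with overlapping groups and limma's adjusted p of 0.587 and 0.317, and Msmb by -0.06. The part of these cell types in the 18 changes was not tested, and the 18 changes had the same sign without the 2 arrays that stood apart.

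The ventral response was set against that of the dorsolateral lobe, whose arrays may come from the same mice. Of the 18 genes, 13 had the same sign in DLP and 0 passed there, where 5 genes passed in all by limma. The difference between the lobes' diet differences passed for 1 gene of 11008 (0.00908%), Akr7a5, and 995 genes had an unadjusted p under 0.05 (9.04%). The Akr7a5 difference was 0.70 in VP and -0.16 in DLP, and their gap was 0.86 ± 0.13 (SE), with a 95% interval from 0.59 to 1.13 and limma's adjusted p of 0.0246. In DLP its levels were 4.81, 4.85, 4.80, 4.94 and 5.19 on control and 4.86, 4.67, 4.69 and 4.80 on HFD, so that the HFD ventral arrays lay in the range of the dorsolateral arrays or just below it. This gap rests on 1 probe set of Akr7a5, of the class able to bind unrelated transcripts, while the other probe set differed by -0.04 in VP. For the other 17 genes limma's adjusted p of the gap ran from 0.164 to 0.794, so a response particular to the ventral lobe was not shown for them. Srebf1 differed by 0.59 in VP and 0.18 in DLP, Mylip by 0.71 and 0.25, and Xpa by 0.58 and 0.43.

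The filter set the lower edge of what was tested. The 523 probe sets above the median on exactly 4 arrays had a median mean level of 1.79, the 592 on exactly 3 arrays, which were left out, had one of 1.72, and the array median was 1.85.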

How the data were processed

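RNA of the 10 ventral and 9 dorsolateral samples was measured on 1 array each. The submitters' processing notes name MAS5 and no other step. The deposited values lie on a logarithmic scale taken as log10. The base was inferred from the spiked controls, whose steps were 0.50, 0.62 and 0.99 against 0.52, 0.70 and 0.60 for log10 of the nominal amounts. Once sorted, the values were the same on each of the 19 arrays, so a value reflects rank, and a shift common to most genes is hidden. Values were converted to log2 with an offset of 1. Folds rest on this base.

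Of 45101 probe sets 64 were controls. Symbols came from the platform annotation, 34741 of them updated through a GRCm38.p6 table. The member probe set with the highest VP mean stood for each gene. The test was limma 3.58.1 in R 4.3.3 on 19 arrays, with 4 group means, 1 precision weight per lobe (arrayWeights) and eBayes with a trend, two-sided, at a Benjamini-Hochberg adjusted p under 0.05. An earlier analysis assumed equal spread, although VP arrays vary more (median SD 0.172 and 0.168 against 0.129 and 0.113). Tested on simulated data, this fit made false calls more often than its threshold allows, less often than with equal spread and more often than with the VP arrays alone. The number of arrays limits the precision.

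Members, tests and the 36 lists were chosen with earlier results of these data known. Named genes were up to 10 per direction that passed with groups apart, filled by p, then all glutathione peroxidases, the passing members of each list (at most 6, filled to 3 by p), and the 3 widest differences per direction. Alternatives covered the spread, the replicate block, prior, filter, probe set, offset, threshold and arrays.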

Additional observations from a re-analysis of the deposited data

Results flagged for a closer look

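Of 256 groups of 5 arrays examined for named genes, 21 held an array whose gap to its neighbour exceeded Dixon's critical ratio of 0.71, and chance gives about 1 in 20. Values are log2 levels, each with the range of the other 4 arrays. On control VP 4, Acadm (5.38 against 5.96 to 6.15), Ephx1 (6.38 against 6.80 to 6.95), Fgfrl1 (2.82 against 3.45 to 3.59), Gpx4 (7.30 against 7.73 to 7.86) and Tkt (6.18 against 7.74 to 8.12) were low, and Fabp4 (5.43 against 4.88 to 5.01) was high. On control VP 2, Chmp3 (4.92) and Thy1 (1.45) were low. On control VP 1, Rad21 was low (5.84) and Slc39a4 high (2.91). On control VP 5, Snx17 was low (7.75 against 8.04 to 8.09) and Wfdc3 high (10.1).

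Among the high fat diet arrays, HFD VP 3 was high for Cd68 (3.38 against 1.97 to 2.17), Gpx8 (5.67) and Prdx4 (5.80). HFD VP 5 was high for Car3 (1.99) and low for Hlf (2.34). HFD VP 4 was low for Mt1 (9.97 against 10.54 to 10.62) and Wfdc3 (4.47 against 7.77 to 8.65). HFD VP 2 was low for Mzb1 (1.27) and Plin4 (2.44).

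The diet difference of Akr7a5 in VP exceeded that in DLP by 0.86, the one gap between lobes that passed limma's adjusted threshold. It rests on 1 probe set, and the other probe set of the gene differed by -0.04 in VP.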

How the results depend on the processing

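The count of 18 genes (12 higher, 6 lower) changed with the estimate of spread. It was 0 with VP arrays alone (0 higher, 0 lower), 124 with equal spread (60 and 64), 44 with 1 weight per array (25 and 19) and 5 with a prior that ignores the mean (5 and 0). Averaging the probe sets of a gene gave 8 (5 and 3), testing every probe set on its own gave 62, and an adjusted p under 0.10 gave 67 (32 and 35). Other filters, the offset, a robust prior and 1 weight per group gave 17 to 21. Leaving out 1 array gave 0 to 24 genes, of which 0 to 14 were higher and 0 to 11 lower. Without both arrays that stood apart 19 were higher and 6 lower. The cause of these shifts was not tested.

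Same-numbered arrays of the 2 diets did not deviate together throughout (correlations -0.11, 0.50, 0.40, 0.03 and 0.19), so the numbers were not taken as pairs. With the replicate block the count was 29 (15 higher and 14 lower), and with the replicate block in VP arrays alone it was 0.

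None of the 18 genes changed sign under any of the alternatives. Over the 628 pairs of these genes and an alternative, 401 kept the call and 227 lost it. Of 3804 such pairs for the other named genes, 51 gained a call. Of 1146 list medians, 8 moved by more than the spread between arrays. Among the other named genes, 10 changed sign, with main differences from -0.23 for Csf1r to 0.22 for Jchain. The other probe sets of Csf1r gave 0.05 and 0.30. Averaging probe sets gave 0.040 for Csf1r, -0.034 for Dst and -0.0099 for Hspa9, and 1 weight per array gave -0.017 for Itgb4. Without both arrays that stood apart Dst was -0.012 and Uchl1 -0.00091. With 1 array left out Actn3 ran from -0.072 to 0.14, Dst from -0.029 to 0.068, Itgb4 from -0.078 to 0.098, Jchain from -0.33 to 0.88, Krt15 from -0.24 to 0.066, Msmb from -0.60 to 0.31, Mzb1 from -0.32 to 0.030 and Uchl1 from -0.025 to 0.089. Signal limits the lowest genes. Npas2, Car3, Gpx7, Actn3, Uchl1, Thy1 and Fcgbp were among those with a mean near or below the array median of 1.85 on at least 1 diet.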

Other observations

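When each probe set was tested on its own, some of the 62 that passed limma's adjusted threshold belonged to genes whose brighter probe set stood for them above. These genes were chosen after their values were seen. Probe sets of Lasp1, an actin-binding adaptor of focal adhesions, differed by -1.49 and -0.66, and one of Yipf5, a membrane protein between the endoplasmic reticulum and the Golgi, by -1.10. Probe sets of Surf4, a cargo receptor of the early secretory pathway, and of Sec61a1, the channel of the translocon, differed by -0.66 and -0.43. Those of Atp5o, Tomm20 and Uqcrb differed by -0.87, -0.63 and -0.50. The brighter probe sets, which stood for these genes, differed by less, at 0.01 for Lasp1, -0.09 for Yipf5, -0.01 for Surf4, 0.03 for Sec61a1, -0.03 for Atp5o, -0.08 for Tomm20 and -0.20 for Uqcrb, and the 28 genes of oxidative phosphorylation had a median of 0.03. The probe set that also stood for Pdha1, the pyruvate dehydrogenase subunit, differed by 0.45 and passed here but not in the test of 1 probe set per gene.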
